A study of Rattus norvegicus with 65 samples.

Results

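Base excision repair, nucleotide excision repair and mismatch repair are the cell's routes for taking out damaged or wrongly paired bases. Here 36 genes of these routes, listed by rat gene symbol, were followed in primary neonatal rat cardiomyocytes exposed to 3 drugs; all 36 listed symbols were found among the 14554 genes of the count table. They are 11 DNA glycosylases, 9 later enzymes and scaffolds of base excision, 6 damage recognition factors and 6 opening and incision factors of nucleotide excision, and 4 mismatch repair genes.

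In base excision, a glycosylase cuts 1 altered base from its sugar, an endonuclease nicks the strand, and a polymerase, ligases and scaffold proteins fill and seal the gap. Nucleotide excision removes a short stretch around a bulky lesion, which is found either anywhere in the genome or at a stalled RNA polymerase, and mismatch repair corrects pairing errors left by replication. Mature heart muscle cells divide little. The cultures used here were neonatal, and markers of cycling cells were measured in them.

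The cells were treated with 10 mM 5FU (5-fluorouracil, a pyrimidine analogue), 2.5 mM Ace (acetaminophen, a painkiller) or 1.25 µM Dox (doxorubicin, an anthracycline that intercalates into DNA and poisons topoisomerase II), for 6 or 24 hours. The wells of the 5FU arm and their control, DMSO1, held 1% DMSO, and the wells of the Ace and Dox arms and their shared control, DMSO2, held 0.25% DMSO; all cells were serum starved overnight before exposure. The 65 polyA RNA libraries fell into 10 groups, with 6 libraries each for 5FU and DMSO1 at both times and for Ace at 6 hours, and 7 for each of the others. Hearts from more than 1 litter were digested and pooled, so wells, not animals, are what the libraries repeat, and the p-values measure the spread between wells. The sources used here give no rat strain or sex.

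Estimated counts over the table summed to between 14332800 and 25738300 per library, and a member's count in a library ranged from 2 to 16235. Of the 36 members, 34 had at least 10 counts in every library; the exceptions were Neil2 (lowest count 5) and Neil3 (lowest count 2). Levels below are CPM, counts scaled to the library's total after TMM scaling, a difference is a log2 fold change from edgeR's quasi-likelihood test with its standard error (SE), and a gene is said to rise or fall where the Benjamini-Hochberg adjusted p (FDR, over all 14554 genes) was below 0.01. The labelled cell type was checked against 9 cardiomyocyte markers, none of which was at 0 counts throughout a group; their summed level lay between 35292.7 and 67507.7 CPM in the DMSO groups and between 19284.2 and 25230.7 CPM in Dox at 24 hours, where 8 of the 9 fell. In 5FU at 24 hours 5 of the 9 fell and 2 rose, and their sum (28263.5 to 30569.1 CPM) lay below that of DMSO1 (35292.7 to 41151.8 CPM). The 9 fibroblast markers fell too, all 9 of them, in 5FU, Ace and Dox at 24 hours, and their sum was between 1923.35 and 4074.46 CPM with Dox against 15123.5 to 18915.8 CPM in its control. All 6 endothelial markers fell with Dox at both times (sum 20.1 to 44.3 against 206 to 266 CPM at 24 hours) and 4 of them with 5FU and with Ace at 24 hours, while of the 9 macrophage and leukocyte markers 8 fell with Dox, 6 with Ace and 3 with 5FU at 24 hours. Of 6 smooth muscle and pericyte markers, 3 rose and 2 fell with Dox, 2 rose and 4 fell with 5FU and 4 fell with Ace at 24 hours. In RNA from whole cultures, fewer cells of a type and less RNA per cell cannot be told apart, and the part of these marker shifts in the differences below was not tested. Library 1 of DMSO1 at 24 hours stood apart from its group for Xrcc1 and Ercc2. A Dox 24 hour library did so for Fen1 and Xpc. Values without them stand beside those genes. The same DMSO1 library lay outside the others for further members. Among them it was lowest for Parp1 (167 CPM, others 192 to 225), Xpa (4.5, others 7.44 to 9.85) and Ercc5 (16.7, others 22.5 to 23.9). For Ercc3 it was highest (59, others 44.1 to 52.2). The 5FU effects on these further members are given with that library included.

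RefSeq promoter windows (build GRCr8, 250 bases before and 50 after the annotated start) were at hand for 29 of the 36 members. The windows of the members with the 2 largest rises and the 2 largest falls at 24 hours of Dox are printed 5′ to 3′ on the strand of the gene, with CCAAT and E2F letters, on either strand, in capitals. The E2F letters searched were TTTCCCGC, TTTGGCGC, TTTCGCGC and TTTGCCGC, which do not overlap CCAAT.
Ung, chr12:48153996-48154295, minus strand: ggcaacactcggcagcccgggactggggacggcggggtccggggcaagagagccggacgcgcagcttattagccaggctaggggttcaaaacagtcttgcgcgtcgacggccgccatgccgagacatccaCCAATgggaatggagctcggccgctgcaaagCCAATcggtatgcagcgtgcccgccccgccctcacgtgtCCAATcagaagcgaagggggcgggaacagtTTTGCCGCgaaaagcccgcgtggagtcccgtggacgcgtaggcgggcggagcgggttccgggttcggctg
Msh6, chr6:12333456-12333755, minus strand: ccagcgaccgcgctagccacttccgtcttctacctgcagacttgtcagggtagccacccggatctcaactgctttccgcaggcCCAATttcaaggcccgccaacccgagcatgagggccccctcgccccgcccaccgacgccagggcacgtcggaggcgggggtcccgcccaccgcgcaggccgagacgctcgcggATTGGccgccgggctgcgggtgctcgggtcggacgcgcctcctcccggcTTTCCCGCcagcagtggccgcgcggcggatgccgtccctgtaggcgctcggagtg
Parp2, chr15:26507409-26507708, plus strand: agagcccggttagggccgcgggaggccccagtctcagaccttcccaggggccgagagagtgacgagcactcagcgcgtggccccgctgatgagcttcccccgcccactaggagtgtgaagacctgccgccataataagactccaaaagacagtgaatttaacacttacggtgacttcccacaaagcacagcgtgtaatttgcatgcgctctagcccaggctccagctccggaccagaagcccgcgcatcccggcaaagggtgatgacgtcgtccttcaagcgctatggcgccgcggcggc
Msh3, chr2:25320808-25321107, minus strand: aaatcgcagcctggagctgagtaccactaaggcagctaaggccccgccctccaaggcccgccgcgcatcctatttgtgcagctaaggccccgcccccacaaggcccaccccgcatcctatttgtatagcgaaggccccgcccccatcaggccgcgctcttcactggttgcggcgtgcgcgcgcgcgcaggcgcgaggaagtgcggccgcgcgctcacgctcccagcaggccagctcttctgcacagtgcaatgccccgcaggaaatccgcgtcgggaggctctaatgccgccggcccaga
Ung and Msh6, both of which rose, held 1 E2F match each, beside 3 CCAAT matches in Ung and 2 in Msh6. Parp2 and Msh3, both of which fell, held no match to either motif, which says only that these letters were not in these windows. Among the 33 windows of the 29 members, 4 held E2F letters (12.1%), those of Ung, Nthl1, Lig1 and Msh6, against 3.78% of the 12818 windows of genes in the count table and 2.14% of all 33469 rat windows. CCAAT stood in 51.5% of the members' windows, 36.4% of the table's and 37.5% of all. The E2F match lay 20 bases before the annotated start in Ung, 5 in Msh6 and 136 in Nthl1, and 19 bases after it in Lig1.

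The repair genes moved in both directions with every drug. At 6 hours, 21 of the 36 members were called with 5FU (58.3%, against 47.9% of all genes tested), 13 with Ace (36.1% against 31.7%) and 26 with Dox (72.2% against 64.2%). At 24 hours the counts were 26 with 5FU (72.2% against 55.8%), 18 with Ace (50% against 37.2%) and 27 with Dox (75% against 81.4%). At 24 hours of Dox most of the whole table moved, and the members' share was not above it.

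By direction, 9 members rose and 12 fell with 5FU at 6 hours, where 23.4% of all genes rose and 24.5% fell. At 24 hours of 5FU, 18 rose and 8 fell, against 28% and 27.8% of all genes. With Ace, 8 rose and 5 fell at 6 hours (16.5% and 15.2% of all genes) and 12 rose and 6 fell at 24 hours (18.2% and 19.1%). With Dox, 13 rose and 13 fell at 6 hours (31.5% and 32.7%) and 12 rose and 15 fell at 24 hours (40.4% and 41%). Scaling to library size alone, which shifted the median of all genes by -0.15 at 6 hours of Dox, left 5 members higher and 17 lower there, and gave 14 and 3 for Ace at 24 hours and 6 and 6 for Ace at 6 hours. The median log2 fold change over the members was 0.19 at 24 hours of 5FU, 0.10 at 24 hours of Ace and -0.12 at 24 hours of Dox, where the median over all genes was -0.01, 0.00 and 0.00. In these contrasts 19, 13 and 24 members had drug and control libraries that did not overlap, against 42.9%, 26.9% and 68.2% of all genes. At 6 hours of 5FU, Ace and Dox it was 13, 11 and 16 members, against 28.2%, 24.5% and 42.6%. The 16 for Dox at 6 hours were 8 higher and 8 lower. With DESeq2's size factors 13 were higher and 8 lower there, and with scaling to library size alone 4 and 12. The shares of all genes under these 2 scalings were not computed.

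**Figure D1:**
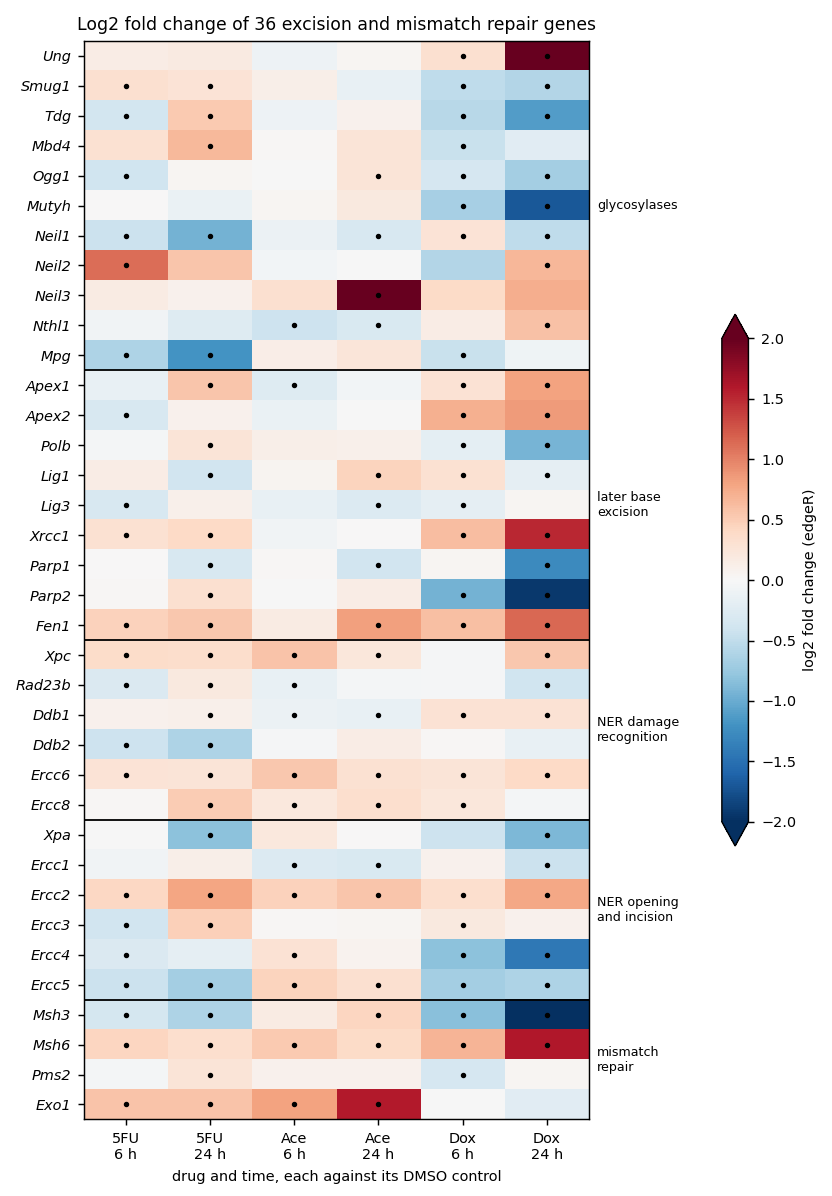
Log2 fold change of the 36 members (rows, grouped by role) in the 6 drug comparisons (columns, each drug and time against its DMSO control); a black dot marks a member called at FDR below 0.01, and colour is capped at 2, which Ung with Dox (2.11) and Neil3 with Ace (2.65) exceed. In the Dox 24 hour column the members at 1 or more in size are Ung, Xrcc1, Fen1 and Msh6 up and Tdg, Mutyh, Parp1, Parp2, Ercc4 and Msh3 down.

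Among the glycosylases, Ung showed the largest response to Dox. Ung removes uracil, and also 5-fluorouracil, from DNA. Its lowest, median and highest library stood at 16.3, 17.3 and 19.1 CPM in DMSO2 at 24 hours and at 67.1, 75.4 and 85.5 CPM in Dox at 24 hours, a 4.32-fold level with no overlap (log2 difference 2.11 ± 0.06 SE, edgeR FDR 9.6e-41). At 6 hours the Dox libraries (29.5, 33.5 and 37.9 CPM) met the highest control library (25.2, 25.8 and 29.9 CPM), and the rise was 0.32 ± 0.06, or 0.17 (edgeR FDR 0.011) with scaling to library size alone. With 5FU, whose base Ung can excise, the level was 29.9 against 27.4 CPM in the medians at 6 hours and 18.5 against 17.1 at 24 hours. These 5FU differences of 0.15 ± 0.06 and 0.19 ± 0.07 did not pass the threshold (edgeR FDR 0.037 and 0.013). With edgeR's filter on low counts the 24 hour difference was called (0.20, edgeR FDR 0.0071). The Dox effect exceeded the 5FU effect at 24 hours by 1.92 ± 0.09 on the log2 scale.

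The other uracil and thymine glycosylases did not share this rise with Dox. Tdg, which removes thymine and uracil opposite guanine and takes part in DNA demethylation, had medians of 124 CPM in DMSO2 and 85.3 in Dox at 6 hours and of 84.2 and 40.4 CPM at 24 hours. The Dox libraries lay below their controls at both times (75 to 93.8 against 118 to 129 CPM, then 32.2 to 45 against 80.9 to 90.6 CPM), and the falls were -0.55 ± 0.05 and -1.12 ± 0.05. With 5FU, Tdg turned: the libraries lay below DMSO1 at 6 hours (94.3 to 105 against 118 to 135 CPM) and above it at 24 hours (117 to 138 against 79.8 to 93.9 CPM). The 2 effects of -0.37 and 0.53 differed by 0.90 ± 0.07 (edgeR FDR 4.1e-16). Smug1, a second uracil glycosylase, rose with 5FU at both times (0.32 and 0.27) and fell with Dox at both (-0.50 and -0.58). Mbd4, which acts on mispaired thymine and uracil at CpG sites, rose by 0.64 ± 0.12 with 5FU at 24 hours and fell by 0.45 ± 0.12 with Dox at 6 hours, at group medians of 2.94 to 6.41 CPM.

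The glycosylases for oxidised bases did not move as 1 group. Mutyh, which removes adenine paired with 8-oxoguanine, fell with Dox from a median of 8 to 4.87 CPM at 6 hours and from 8.14 to 2.54 CPM at 24 hours. Its 24 hour Dox libraries (2.09 to 2.81 CPM) lay far below the controls (6.37 to 10.1 CPM), with a level of 0.308 of the control (log2 difference -1.70 ± 0.09). Ogg1, which takes out 8-oxoguanine itself, fell with 5FU at 6 hours (-0.41) and with Dox at both times (-0.33 and -0.68), and rose with Ace at 24 hours (0.26), a call that was lost without any 1 of 9 libraries (0.24 to 0.26). Neil1 fell with 5FU at both times (-0.43 and -0.95), with Ace at 24 hours (-0.31) and with Dox at 24 hours (-0.51), while it rose with Dox at 6 hours (0.28, or 0.12 and not called with scaling to library size alone). Nthl1, for oxidised pyrimidines, fell with Ace at both times (-0.41 and -0.30) and rose with Dox at 24 hours (0.58). With scaling to library size alone, the 24 hour Ace calls of Neil1 (-0.26) and Nthl1 (-0.24) were lost.

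Neil2 and Neil3 were measured on few counts, with a median count over all libraries of 18 for Neil2 and 23 for Neil3. Neil2 stood at 0.622, 0.766 and 1.24 CPM in DMSO1 at 6 hours and at 1.31, 1.84 and 2.31 CPM in 5FU, without overlap, a rise of 1.11 ± 0.22. It also rose with Dox at 24 hours (0.67 ± 0.20), where drug and control libraries overlapped. Neil3, a glycosylase of proliferating cells, stood at 0.291, 0.414 and 1.07 CPM in DMSO2 at 24 hours and at 1.78, 3.05 and 4.24 CPM in Ace. That was a 6.29-fold level without overlap (2.65 ± 0.26, edgeR FDR 2.1e-13), and the Ace effect grew by 2.33 ± 0.36 between 6 and 24 hours. With Dox at 24 hours the Neil3 difference was 0.73 ± 0.30 (edgeR FDR 0.021), or 0.78 and called with DESeq2 (Wald test FDR 0.0079).

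Mpg, which removes alkylated purines, was the glycosylase that fell most with 5FU. Its libraries lay at 7.58, 8.3 and 10.2 CPM in DMSO1 and 3.73, 5.62 and 7.17 CPM in 5FU at 6 hours, and at 5.91, 8.58 and 10.1 CPM against 2.9, 3.56 and 4.47 CPM at 24 hours. Neither time had overlapping libraries, and the fall deepened from -0.62 ± 0.11 to -1.20 ± 0.12 (difference -0.58, edgeR FDR 2.5e-03). With Ace at 24 hours Mpg was 0.24 higher, which missed the threshold, and with Dox it fell at 6 hours (-0.45) and was at -0.08 at 24 hours.

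**Figure D2:**
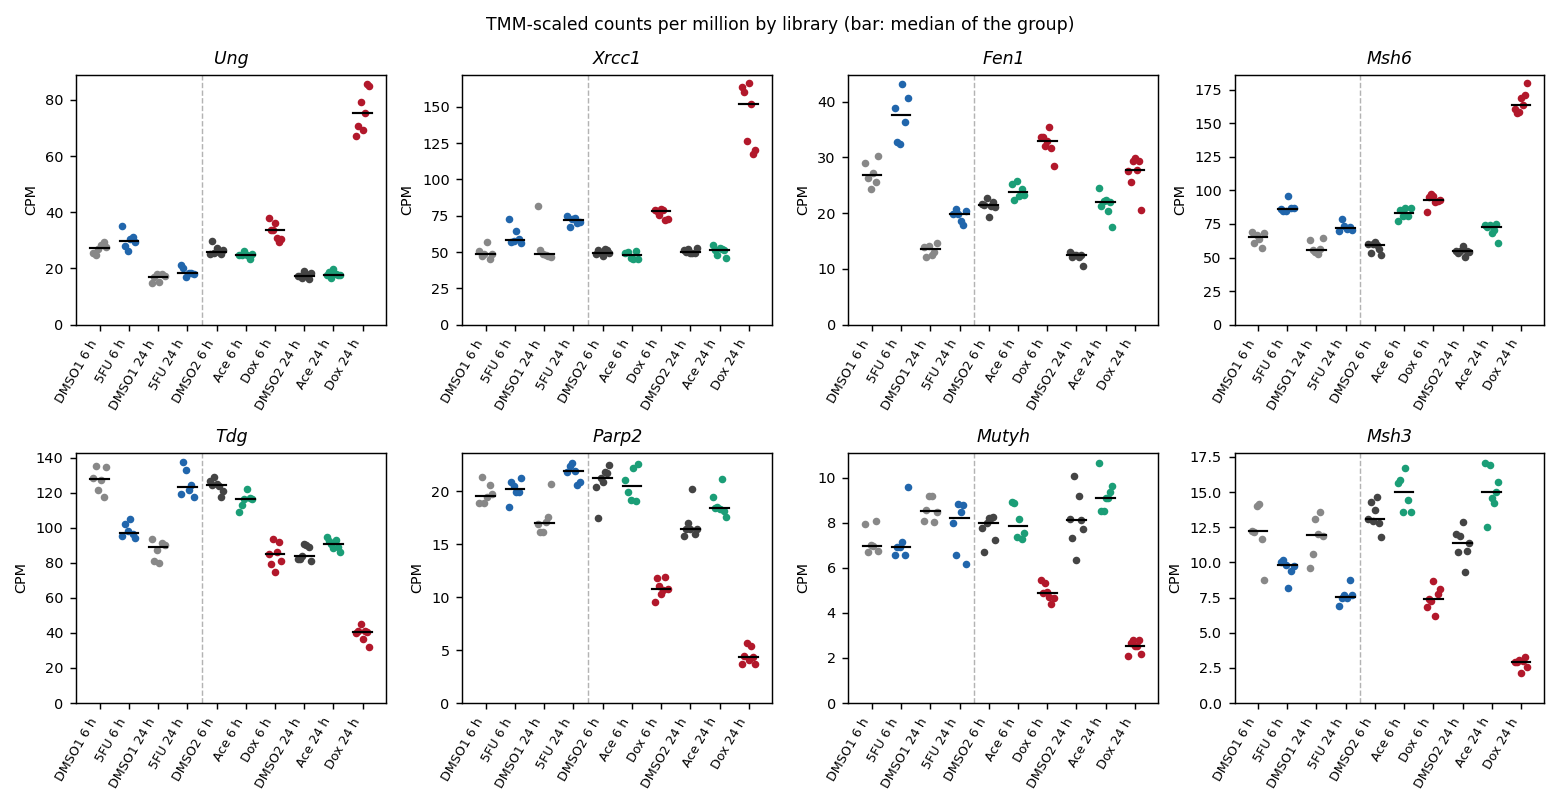
CPM of 8 members in each library (points) of the 10 groups, with the group median as a bar; the dashed line parts the 5FU arm with DMSO1 from the Ace and Dox arms with DMSO2, and each axis starts at 0. Ung, Xrcc1 and Msh6 reach medians of 75.4, 152 and 163 CPM in Dox at 24 hours, while Tdg, Parp2, Mutyh and Msh3 have their lowest group there.

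Past the glycosylase step, the scaffold and the nucleases rose with Dox at 24 hours while the break sensors and the polymerase fell. Xrcc1, the scaffold that gathers the ligase and polymerase at a break, stood at 49, 50.3 and 52.5 CPM in DMSO2 at 24 hours and at 118, 152 and 166 CPM in Dox (2.85-fold, 1.51 ± 0.08). It had already risen at 6 hours, from 47.3 to 51.9 CPM in the controls to 72.2 to 79.6 CPM in Dox (0.62 ± 0.08). With 5FU, Xrcc1 rose by 0.30 ± 0.08 at 6 hours and 0.40 ± 0.08 at 24 hours, where 1 DMSO1 library stood at 81.8 CPM and the other controls between 46.7 and 51.6 CPM; without it the 24 hour rise was 0.56. The 6 hour call was lost without 5FU library 1 (0.24) and with scaling to library size alone (0.22). Fen1, the flap endonuclease of long-patch repair and of replication, rose with 5FU at both times, with Dox at both and with Ace at 24 hours.

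For Fen1 the 24 hour medians were 13.5 CPM in DMSO1 and 19.8 in 5FU, and 12.4 in DMSO2, 22 in Ace and 27.8 in Dox, with no overlap between any of the drugs and its control. The 24 hour rises were 0.54 ± 0.07 with 5FU, 0.82 ± 0.07 with Ace and 1.15 ± 0.07 with Dox. The lowest Dox library (20.6 CPM) stood apart from the others (25.7 to 29.9 CPM), and without it the rise was 1.24. Apex1, the main endonuclease that nicks the strand at an abasic site, and its relative Apex2 rose with Dox at both times (0.29 and 0.80 for Apex1, 0.70 and 0.85 for Apex2), the 6 hour value of Apex1 being 0.14 and not called with scaling to library size alone. Apex1 rose with 5FU at 24 hours too (0.55) and fell with Ace at 6 hours (-0.27).

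Parp1 and Parp2 sense strand breaks and build poly(ADP-ribose) chains there. Parp1 stood at 221, 236 and 248 CPM in DMSO2 at 24 hours, at 158, 181 and 212 CPM in Ace and at 90.4, 95.5 and 108 CPM in Dox. All Ace and all Dox libraries lay below the controls, with falls of -0.39 ± 0.05 and -1.28 ± 0.05, while at 6 hours neither difference was called (0.02 and 0.05). With 5FU at 24 hours Parp1 fell by 0.33 ± 0.05, with overlap (154 to 172 against 167 to 225 CPM). The overlap came from library 1 of DMSO1 alone (167 CPM, others 192 to 225). Parp2 fell earlier: 9.52, 10.8 and 11.9 CPM in Dox at 6 hours against 17.5, 21.2 and 22.5 CPM in DMSO2, then 3.64, 4.34 and 5.67 CPM at 24 hours against 15.7, 16.5 and 20.2 CPM. The differences were -0.94 ± 0.07 and -1.93 ± 0.07, the latter a level of 0.263 of the control. With 5FU at 24 hours Parp2 rose by 0.32 ± 0.07, and the Dox and 5FU effects there differed by -2.25 ± 0.10.

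Polb, the gap-filling polymerase of short-patch repair, fell by 0.93 ± 0.06 with Dox at 24 hours, from 23.2 to 28.1 CPM in the controls to 11.4 to 14.5 CPM. It also fell with Dox at 6 hours (21.1 to 25.5 against 23.8 to 27.9 CPM) and rose with 5FU at 24 hours (27.9 to 32.7 against 22.1 to 28 CPM). The ligases moved less. Lig1, which also joins replication fragments, rose with Ace at 24 hours (0.44 ± 0.05, 66.9 to 76.7 against 50.9 to 56.3 CPM) and fell with 5FU at 24 hours (-0.38 ± 0.06). With Dox it was higher at 6 hours (0.31), which was 0.15 and not called with scaling to library size alone, and lower at 24 hours (-0.18). The 24 hour call was lost without Dox library 2 (-0.14) or 7 (-0.12), with scaling to library size alone (-0.13) and with DESeq2's size factors (-0.14). Lig3, the partner of Xrcc1, fell with 5FU and Dox at 6 hours (-0.32 and -0.18) and with Ace at 24 hours (-0.27); the Dox call was lost when the compared groups were fitted alone.

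The damage recognition genes of nucleotide excision changed by smaller amounts, none of them by a log2 fold change of 1 in size. At 6 hours 2 of the 6 rose and 2 fell with 5FU (23.4% and 24.5% of all genes). With Ace 3 rose and 2 fell (16.5% and 15.2%), and with Dox 3 rose and none fell (31.5% and 32.7%). The 6 hour Ace falls were Ddb1, lost without any 1 of 6 libraries, and Rad23b, lost without any 1 of 4. That Ddb1 call was also lost with edgeR's filter on low counts and with the compared groups fitted alone. At 24 hours 5 rose and 1 fell with 5FU (28% and 27.8% of all genes), and 3 rose and 1 fell with Ace (18.2% and 19.1%) and with Dox (40.4% and 41%). Ddb1, at 0.10 with 5FU and -0.14 with Ace at 24 hours, is among these counts and was not called in either with scaling to library size alone (0.10 and -0.08), nor with 5FU when the compared groups were fitted alone or without any 1 of 6 libraries. Xpc, which finds distorted DNA anywhere in the genome, rose in 5 of the comparisons. Its libraries stood at 21.4, 23.4 and 24.8 CPM in DMSO2 at 6 hours and at 32.5, 34.4 and 35.3 CPM in Ace, a rise of 0.57 ± 0.05 without overlap. At 24 hours of Ace the rise was 0.23 ± 0.05, smaller by 0.34 ± 0.07 (edgeR FDR 1.4e-04). Dox took the opposite course, at -0.03 ± 0.05 at 6 hours and 0.54 ± 0.05 at 24 hours (30.9, 32.8 and 37.8 against 21.1, 23.2 and 24.7 CPM), the last 0.53 without its highest library. With 5FU the rise was 0.37 at 6 hours and 0.35 at 24 hours.

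Ddb2, which with Ddb1 recognises ultraviolet lesions, fell with 5FU. Its libraries stood at 4.11, 4.44 and 5.35 CPM in DMSO1 and 2.31, 3.58 and 4.19 CPM in 5FU at 6 hours, and at 4.71, 5.49 and 7.47 against 3.27, 3.8 and 4.22 CPM at 24 hours. The falls were -0.42 ± 0.11 with overlap and -0.62 ± 0.11 without, and the 6 hour call was lost when the compared groups were fitted alone. With Dox it was at 0.02 ± 0.10 and -0.15 ± 0.10. Ddb1 rose with Dox at both times (0.29 and 0.30). Rad23b, which stabilises Xpc, fell with 5FU at 6 hours (-0.29), rose at 24 hours (0.19) and fell with Dox at 24 hours (-0.40). The transcription-coupled factors Ercc6 and Ercc8 act at stalled RNA polymerase: Ercc6 rose with each drug at both times, by 0.26 to 0.54, and Ercc8 rose with 5FU at 24 hours (0.51), with Ace at both times (0.21 and 0.34) and with Dox at 6 hours (0.23). With scaling to library size alone, the 6 hour Dox values of both (0.11 and 0.07) and the 6 hour Ace value of Ercc8 (0.18) were not called.

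Of the factors that open and cut the DNA, the helicase gene Ercc2 rose with each drug at both times. Both helicases, Ercc2 and Ercc3, belong to the transcription factor TFIIH. In the medians of the libraries, Ercc2 went from 25 to 33.2 CPM with 5FU at 6 hours and from 17.4 to 31.8 at 24 hours. Against DMSO2 (22 CPM at 6 hours and 17.2 at 24) it stood at 30.2 and 25.1 CPM with Ace and at 27.8 and 30.5 CPM with Dox. All the drug libraries lay above their controls in each of these comparisons, and the log2 rises ran from 0.34 ± 0.06 (Dox at 6 hours) to 0.79 ± 0.07 (5FU at 24 hours). The highest DMSO1 library at 24 hours (23.8 CPM, others 16.6 to 17.7) stood apart, and without it the 5FU rise was 0.89. Ercc3 fell with 5FU at 6 hours (-0.39) and rose at 24 hours (0.47), a turn of 0.86 ± 0.07 (edgeR FDR 3.3e-16), and rose with Dox at 6 hours (0.20). With scaling to library size alone, the 6 hour Dox calls of Ercc2 (0.19) and Ercc3 (0.05) were lost.

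Ercc4 is the nuclease that, with Ercc1, cuts on the 5′ side of the lesion. It stood at 15.4, 16.8 and 18.9 CPM in DMSO2 and 7.76, 9.52 and 13 CPM in Dox at 6 hours, and at 14.7, 16.5 and 18.3 against 4.72, 5.86 and 7.5 CPM at 24 hours. The falls were -0.82 ± 0.08 and -1.43 ± 0.08, and no library overlapped at either time. Ercc4 also fell with 5FU (-0.28) and rose with Ace (0.29) at 6 hours. That 5FU call was lost without DMSO1 library 4, and the Ace call without Ace library 5 or with scaling to library size alone (0.26). Ercc1 fell less with Dox at 24 hours (-0.43) and fell with Ace at both times (-0.27 and -0.31). Ercc5, the nuclease of the 3′ cut, fell with 5FU (-0.44 and -0.67) and with Dox (-0.68 and -0.62) and rose with Ace (0.45 and 0.31). Xpa, which verifies the lesion, fell at 24 hours with 5FU (-0.82 ± 0.16) and Dox (-0.89 ± 0.15), at medians of 4.57 and 4.28 CPM.

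In mismatch repair, the partner genes Msh3 and Msh6 parted. Their proteins compete for a common partner, and the Msh6 form reads single mismatches while the Msh3 form reads longer loops. Msh6 stood at 50.1, 54.5 and 58.6 CPM in DMSO2 at 24 hours, at 61.2, 72.4 and 75.2 CPM in Ace and at 157, 163 and 180 CPM in Dox. It rose with each drug at both times without overlap: by 0.44 and 0.34 with 5FU, 0.53 and 0.38 with Ace, and 0.68 ± 0.05 and 1.61 ± 0.05 (3.05-fold) with Dox. Msh3 stood at 9.3, 11.4 and 12.9 CPM in DMSO2 at 24 hours and at 2.17, 2.89 and 3.28 CPM in Dox, a level of 0.252 of the control. Its falls were -0.84 ± 0.08 at 6 hours and -1.99 ± 0.10 at 24 hours of Dox, and -0.35 ± 0.09 and -0.62 ± 0.09 with 5FU; the 6 hour 5FU call was lost when the 2 groups were fitted alone. With Ace at 24 hours Msh3 rose by 0.43 ± 0.08 (12.5 to 17 CPM).

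Exo1, the exonuclease that digests the strand with the error, responded to Ace. It stood at 2.97, 4.2 and 5.35 CPM in DMSO2 and 6.53, 7.58 and 8.52 CPM in Ace at 6 hours, and at 1.11, 1.94 and 2.41 CPM against 4.75, 5.91 and 6.39 CPM at 24 hours. The rises were 0.81 ± 0.13 and 1.58 ± 0.14, both without overlap, and differed by 0.78 ± 0.19 (edgeR FDR 1.6e-03). With 5FU Exo1 rose by 0.57 at both times, with overlap, the 24 hour call being lost without any 1 of 3 libraries (0.51), and with Dox it was at -0.01 and -0.23. Pms2, the endonuclease subunit, rose with 5FU at 24 hours (0.26) and fell with Dox at 6 hours (-0.34).

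The time course differed between drugs. The effect at 24 hours was set against that at 6 hours for each member in an interaction test, which called 16 members for 5FU (39.5% of all genes), 6 for Ace (11.6%) and 24 for Dox (64.8%). For 5FU, 11 effects moved up and 5 down (20.3% and 19.2% of all genes), and Tdg, Rad23b and Ercc3 turned from a called fall at 6 hours to a called rise at 24 hours. For Ace, 4 moved up (5.58%), Neil3, Lig1, Fen1 and Exo1, and 2 moved down (6.06%), Parp1 and Xpc. With Dox 11 moved up and 13 down (34% and 30.8%), or 14 and 11 with scaling to library size alone, which shifted the median of all genes by 0.27 in this contrast and gave 7 and 1 for Ace. The interaction for Dox added 1.79 to Ung, 0.92 to Msh6 and 0.89 to Xrcc1, and took -1.15 from Msh3, -1.04 from Mutyh, -0.99 from Parp2 and -0.61 from Ercc4. Parp1, with an interaction of -1.33 ± 0.07, was not called at 6 hours. Neil1 (0.28, then -0.51) and Lig1 (0.31, then -0.18) stood above the control at 6 hours and below it at 24 hours, but of these 4 values the 24 hour value of Neil1 alone was also called with scaling to library size alone.

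**Figure D3:**
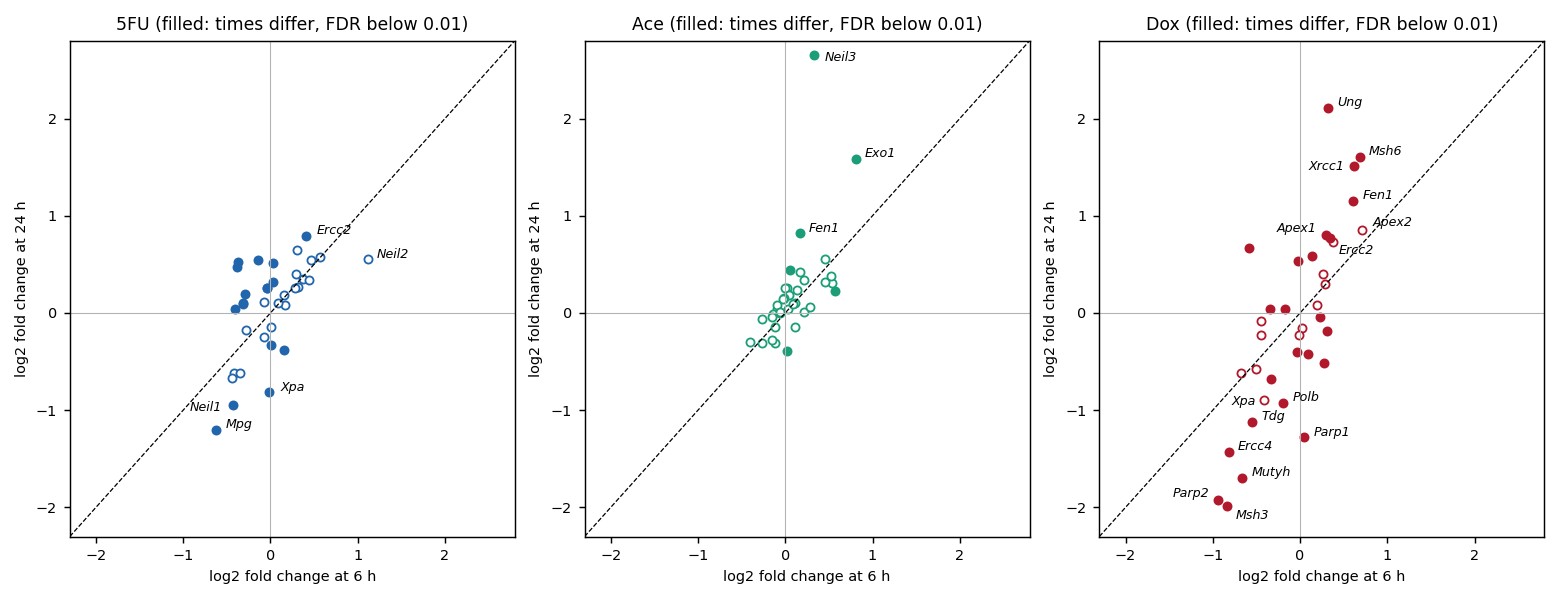
Log2 fold change at 6 hours (horizontal) and 24 hours (vertical) for the 36 members with each drug, each against its control; filled points differ between the times (16 for 5FU, 6 for Ace, 24 for Dox), and the dashed line marks equal effects. The Dox points stretch along the vertical axis from Msh3 at -1.99 to Ung at 2.11, and the Ace points reach 2.65 for Neil3, 1.58 for Exo1 and 0.82 for Fen1 at 24 hours.

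Between the drugs at 24 hours, the effects of Dox and 5FU, each against its own control, differed for 27 members (71.1% of all genes), those of Ace and 5FU for 18 (37.3%) and those of Dox and Ace, which share DMSO2, for 31 (80.6%). Dox and 5FU had opposite effects on Tdg (-1.12 and 0.53, differing by -1.64 ± 0.07), Parp2 (-1.93 and 0.32) and Smug1 (-0.58 and 0.27). Ace and 5FU parted most for Neil3 (difference 2.57 ± 0.41), Mpg (1.44 ± 0.16), Msh3 (1.05 ± 0.12) and Exo1 (1.01 ± 0.22). Doses and DMSO shares differ between the arms, so these are differences between the conditions as given, at 1 dose each.

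A further 50 measured genes that act beside the members (clamp and clamp loaders, replicative polymerases, end-processing enzymes, TFIIH subunits, RPA and other mismatch factors) also moved in both directions. With Dox at 24 hours 21 rose and 23 fell (40.4% and 41% of all genes), with Ace at 24 hours 28 rose and 3 fell (18.2% and 19.1%), and with 5FU at 24 hours 27 rose and 6 fell (28% and 27.8%). At 6 hours 22 rose and 14 fell with Dox and 18 rose and 7 fell with 5FU, which scaling to library size alone turned to 15 and 21 and to 11 and 12; with Ace it was 16 and 1. Of all genes, 31.5% rose and 32.7% fell with Dox at 6 hours, 23.4% and 24.5% with 5FU, and 16.5% and 15.2% with Ace. The largest rises over the 6 comparisons were Mcm8 (2.26 ± 0.14), a helicase, and Rfc5 (2.06 ± 0.07), a subunit of the clamp loader, both with Dox at 24 hours. The largest falls were Pold1 (-2.04 ± 0.10), the catalytic subunit of polymerase delta, with Dox at 24 hours, and Tdp1 (-1.61 ± 0.09), which frees trapped topoisomerase I from DNA, with Dox at 6 hours. By route, the medians at 24 hours of Dox were -0.32 over 23 base excision partners and -0.02 over 22 nucleotide excision partners. The 5 mismatch partners had a median of 1.36 but went both ways, and all were called, 3 up and 2 down. Mcm8, Msh5 (2.03) and Mcm9 (1.36) rose, while Mlh3 (-1.54) and Pms1 (-1.22) fell.

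Several members serve replication as well as repair, so cycling-cell markers are given beside them. With Ace at 24 hours all 17 markers (among them Mki67, Top2a and the Mcm genes) rose against DMSO2, with a median of 0.78. Their summed level was 414.738 to 458.584 CPM in DMSO2 and 630.523 to 922.359 CPM in Ace. Neil3, Exo1, Fen1 and Lig1 rose in the same libraries. At 6 hours the marker sum had been 769.718 to 856.54 CPM in DMSO2 and 726.646 to 796.691 CPM in Ace. With Dox at 24 hours 6 of the 17 rose and 8 fell, and their sum (374.01 to 505.96 CPM) overlapped that of the controls, while Ung, Msh6, Xrcc1 and Fen1 rose. With 5FU at 24 hours 2 rose and 3 fell, with sums of 407.81 to 476.788 against 457.169 to 498.678 CPM. At 6 hours of Ace, 1 of the 17 markers rose and 6 fell. Exo1 rose there (0.81), while Neil3, Fen1 and Lig1 were not called. With 5FU at 6 hours 1 marker rose and 8 fell. Exo1 (0.57) and Fen1 rose there, while Neil3 and Lig1 were not called. With Dox at 6 hours 5 markers rose and 8 fell, while Fen1 rose and Exo1 and Neil3 were not called. The part of cycling cells in these differences was not tested.

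**Figure D4:**
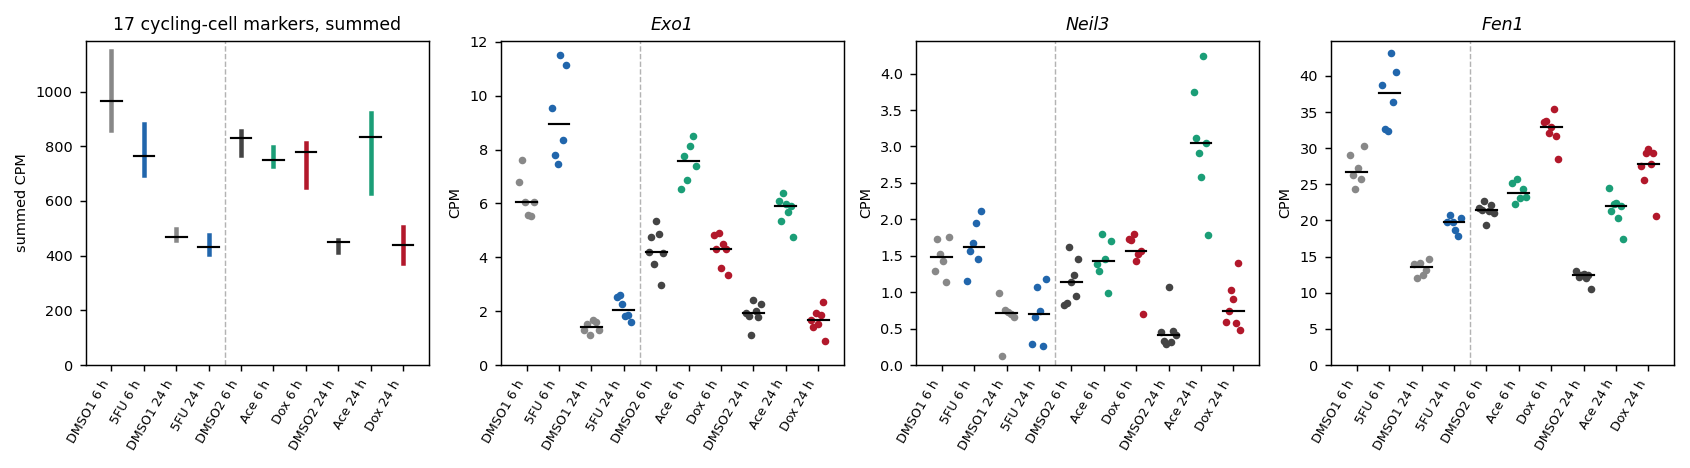
Summed CPM of 17 cycling-cell markers (line from the lowest to the highest library, bar at the median) and CPM of Exo1, Neil3 and Fen1 per library (points, bar at the median) in the 10 groups; axes start at 0. All 4 panels are higher in Ace than in DMSO2 at 24 hours. In Dox at 24 hours, where the marker sum overlaps its control, edgeR calls Fen1 alone of the 3 genes, and DESeq2 calls Neil3 too.

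Culture time in DMSO moved these genes as well. Between 6 and 24 hours in DMSO, as the mean of DMSO1 and DMSO2, 25 members were called (64.6% of all genes), 21 of them lower and 4 higher (31.9% and 32.7% of all genes). The largest falls were Exo1 (-1.65 ± 0.10), Neil3 (-1.19 ± 0.20), Fen1 (-0.91 ± 0.05), Lig1 (-0.71 ± 0.04) and Ung (-0.65 ± 0.04), and 16 of the 17 cycling markers fell as well. Xpa rose by 1.31 ± 0.11, from medians of 2.98 CPM in DMSO1 and 3.92 in DMSO2 at 6 hours to 9.13 and 7.43 CPM, and Parp1 by 0.48 ± 0.04. Thus some drug differences at 24 hours are set against a control that had fallen: Exo1 in Ace at 24 hours (median 5.91 CPM) lay above its control (1.94 CPM) but not above Ace at 6 hours (7.58 CPM). Fen1 in Ace lay at 22.3 to 25.7 CPM at 6 hours and 17.5 to 24.5 at 24 hours. Neil3 in Ace lay at 0.983 to 1.79 CPM at 6 hours and 1.78 to 4.24 at 24 hours. Other drug differences are set against a control that had risen. Parp1 in Ace lay at 161 to 172 CPM at 6 hours and 158 to 212 at 24 hours. In 5FU Parp1 lay at 142 to 172 CPM at 6 hours and 154 to 172 at 24 hours. Xpa in 5FU lay at 1.94 to 3.58 CPM at 6 hours and 3.82 to 5.83 at 24 hours. In Dox Xpa lay at 2.19 to 3.23 CPM at 6 hours and 2.77 to 5.24 at 24 hours. Parp1 in Dox went from 163 to 181 CPM at 6 hours down to 90.4 to 108 at 24 hours.

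The 2 DMSO controls differed in few members. At 6 hours 5 members were higher and none lower in DMSO1 than in DMSO2 (13.9%, against 16.5% of all genes called, 9.87% higher and 6.6% lower), namely Exo1 (0.54), Fen1 (0.35), Lig3 (0.22), Ercc3 (0.21) and Msh6 (0.16), and 8 of the 17 cycling markers were higher there too; with scaling to library size alone 2 members were higher and 3 lower. At 24 hours none was called by edgeR (0.433% of all genes) or by DESeq2. At an unadjusted edgeR p below 0.05 there were 7 of 36, and the share of all genes at that cut was not computed.

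Some members start back to back with another gene. Of 13 members with a divergent neighbour whose annotated start lies within 300 bases (RefSeq, GRCr8), 9 had a measured neighbour. With Dox at 24 hours, 4 of these 9 pairs moved the same way and 2 in opposite ways, and in the other 3 not both were called. In that contrast 40.4% of all genes rose and 41% fell, so pairs of unlinked genes would often be called as well. Their share was not computed, and the pairs below are examples only. Mutyh (-1.70) and Toe1 (-1.01), whose starts are 72 bases apart, fell together, and they also fell together at 6 hours (-0.66 and -0.93). Apex1 and Osgep, 113 bases apart, parted, with Apex1 at 0.80 and Osgep at -1.04 with Dox at 24 hours, and at 0.55 and -1.03 with 5FU at 24 hours. Xpc (0.54) and Lsm3 (-0.64), 101 bases apart, parted with Dox at 24 hours and rose together with 5FU at 24 hours (0.35 and 0.67). Mutyh and Toe1 also overlap in the annotation, as do 18 other members with some gene (Tdg, Parp2, Fen1, Ercc2 and Msh6 among them), and since kallisto was run under its defaults, which take no account of strand, reads from overlapping exons may not be separable.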

How the data were processed

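PolyA RNA of 65 libraries was sequenced by the study in paired reads. The deposited values are estimated counts, which the authors made with kallisto 0.46.0 under its defaults against the Ensembl rat transcriptome, summed to Entrez genes with tximport and filtered to drop genes with fewer than 10 counts throughout; every value is whole, and no scaling had been applied. All 65 columns were matched to groups by the labels, and no column was left over. Column names give the group but not the replicate number. Symbols were taken from a RefSeq table of build GRCr8, in which 14009 of the 14554 identifiers had one. The authors' own fold changes and p-values were not used.

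The counts were fitted in R 4.3.3 with edgeR 4.0.16 (quasi-likelihood test, TMM scaling) in 1 model of the 10 groups, with Benjamini-Hochberg adjustment over all genes and a threshold of 0.01. A minimum of 10 counts in at least 1 library was set; all 14554 genes passed it, so the planned fit with no filter was the same fit. Contrasts were each drug against its DMSO control, DMSO1 against DMSO2, 24 against 6 hours in DMSO, the change of each drug effect between times, and differences of drug effects at 24 hours. The alternatives were DESeq2 1.42.0 (its size factors and its Wald test), library size scaling, edgeR's filter on low counts, a threshold of 0.1, a minimum log2 change of 1, the compared groups alone, and each library left out. On simulated data for Dox against DMSO2 at 24 hours over 14554 genes, 100 genes were changed 1.5-fold and 100 others 2-fold, all above a count floor. Of these, 79% and 97% were recovered. In the measured contrast 81.4% of genes were called, so these rates need not hold there or for members on few counts. The closest of 180 pairs of libraries within a group differed by a chi-square of 2.84 per gene, so none was counted as a repeat of another. The depth in the report covers counting error only; no batch is named in the labels.

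All 36 members are named. Given per library are those called with a log2 change of at least 1 in a drug comparison and, for each role, the called member with the largest change in each direction (17 in all); of the partner genes, the 2 largest rises and falls are named. Other partners, markers and divergent neighbours are given by counts or as examples chosen after their values were seen. The members and the lists were chosen with earlier results of these data known.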

Additional observations from a re-analysis of the deposited data

Results flagged for a closer look

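Each group of libraries was screened for 1 library far from the rest, for the 17 members given per library. Of 170 groups, 20 had such a library, where chance would give about 8.5, and each is given here in CPM beside the range of the other libraries of its group. Libraries are numbered by their order in the table.

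In the controls, Xrcc1 was at 81.8 CPM and Ercc2 at 23.8 CPM in library 1 of DMSO1 at 24 hours (others 46.7 to 51.6 and 16.6 to 17.7). Parp2 was at 20.7 in library 6 of DMSO1 at 24 hours (16.1 to 17.6), at 20.2 in library 5 of DMSO2 at 24 hours (15.7 to 17) and at 17.5 in library 2 of DMSO2 at 6 hours (20.4 to 22.5). Fen1 was at 10.5 in library 7 of DMSO2 at 24 hours (12.1 to 13), Exo1 at 1.11 in library 3 of that group (1.8 to 2.41) and Ercc4 at 18.9 in library 4 of DMSO1 at 6 hours (15.4 to 16.5). Neil3 was at 0.118 in library 2 of DMSO1 at 24 hours (0.653 to 0.994) and at 1.07 in library 4 of DMSO2 at 24 hours (0.291 to 0.473).

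In the drug groups, library 7 of Dox at 24 hours was low for Fen1 (20.6, others 25.7 to 29.9) and high for Xpc (37.8, others 30.9 to 33.4). Library 4 of 5FU at 6 hours was low for Msh3 (8.17, others 9.37 to 10.2) and high for Msh6 (95.5, others 84.3 to 86.6), and library 6 of that group was high for Mutyh (9.58, others 6.55 to 7.15). Msh6 was at 84.1 in library 1 of Dox at 6 hours (91.4 to 97.4), and Xpc at 32.5 in library 1 of Ace at 6 hours (34.3 to 35.3). Neil2 was at 0.418 in library 4 of Ace at 6 hours (0.615 to 0.765) and at 1.93 in library 7 of Ace at 24 hours (0.824 to 1.11), and Neil3 at 0.705 in library 7 of Dox at 6 hours (1.43 to 1.79).

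In 23 cases a drug effect on 1 of these 17 members differed between the times by the interaction test (24 hours minus 6 hours, log2). With 5FU this was 0.90 for Tdg, -0.58 for Mpg, -0.33 for Parp1, 0.29 for Parp2 and 0.39 for Ercc2. With Ace it was 2.33 for Neil3, -0.41 for Parp1, 0.65 for Fen1, -0.34 for Xpc and 0.78 for Exo1. With Dox the rises were 1.79 for Ung, 1.26 for Neil2, 0.92 for Msh6, 0.89 for Xrcc1, 0.56 for Xpc, 0.54 for Fen1 and 0.43 for Ercc2, and the falls were -1.33 for Parp1, -1.15 for Msh3, -1.04 for Mutyh, -0.99 for Parp2, -0.61 for Ercc4 and -0.57 for Tdg.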

How the results depend on the processing

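No paired analysis was possible because the columns carry no replicate numbers. The counts of called members and partner genes were within 1.5 times of those reported under DESeq2's size factors or Wald test, library size scaling, edgeR's filter on low counts and each left-out library, with the exceptions given here. A minimum log2 change of 1 left, for 5FU, Ace and Dox in turn, 1, 0 and 0 members and 0, 0 and 1 partner genes at 6 hours, and 1, 2 and 10 members and 2, 5 and 17 partner genes at 24 hours. A threshold of 0.1 gave 28 partner genes for Ace at 6 hours, 14 members between the DMSO controls at 6 hours and 2 at 24 hours, and 10 members in the Ace interaction. The shares of all genes at that minimum change and at that threshold were not computed. These counts therefore do not tell members or partner genes from the rest of the table. With the compared groups fitted alone, 3 members differed between the DMSO controls at 6 hours. With 1 library left out, the called members ranged from 19 to 23, 25 to 28, 11 to 14, 17 to 18, 26 to 27 and 26 to 28 for 5FU, Ace and Dox, at 6 and then 24 hours each. Of the 131 called drug differences, 12 lost the call without some library. With 5FU at 6 hours these were Apex2 (any 1 of 8 libraries), Ercc4 (-0.24 without DMSO1 library 4) and Xrcc1 (0.24 without 5FU library 1), and at 24 hours Ddb1 (any 1 of 6) and Exo1 (0.51 without 5FU library 1 or 2 or DMSO1 library 3). With Ace at 6 hours they were Ddb1 (any 1 of 6), Rad23b (any 1 of 4), Ercc4 (0.25 without Ace library 5) and Ercc8 (0.20 without Ace library 6), and at 24 hours Ogg1 (any 1 of 9) and Nthl1 (-0.24 without Ace library 6, -0.28 without DMSO2 library 5). With Dox at 24 hours it was Lig1 (-0.14 and -0.12 without Dox libraries 2 and 7).

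Of the 216 drug differences, scaling to library size alone lost 16 calls and added 8, the compared groups alone lost 6 and added 1, DESeq2's size factors lost 2 and added 3, its Wald test lost 1 and added 4, and edgeR's filter on low counts lost 2 and added 2. No called value changed sign; values that were not called did so 25 times in these fits and 63 times with 1 library left out, the largest of them 0.14 in size. The cause was not tested. Neil2, Neil3, Exo1, Mbd4 and Xpa rest on the fewest counts, which limits how small a change could be seen for them.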
